A study of Saccharomyces cerevisiae with 42 samples.

Results

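Vehicle-treated yeast harvested 6 h after dilution were compared with the saturated culture from which they had been started. The comparison rests on 6 of the 42 libraries of the series, 3 at 6 h and 3 at 0 h, chosen by treatment and hour alone. All 6 came from strain BY4741 (MATa, with the deletions met15-Δ0, ura3-Δ0 and leu2-Δ0 and the allele his3-Δ1), a haploid laboratory strain of Saccharomyces cerevisiae made prototrophic by the plasmid pHLUM, which supplies HIS3, LEU2, URA3 and MET17 (also called MET15). Cells from a saturated overnight culture were put at 0.15 A600 units per ml into warm SDC, a synthetic glucose medium, holding 0.3% ethanol as the vehicle, and were shaken at 200 rpm and 30 °C. The 6 h group had grown in this medium for 6 h, and the 0 h group was harvested at the time of dilution, so that its transcripts are those of saturated cells. No library of either group received myriocin. The sources used here state that all time points of a replicate came from one flask. Each group had n = 3, and p-values rest on the spread between libraries of one group, pooled over all 7 vehicle hours, which may be technical. In such bulk samples, fewer cells of a kind and less RNA per cell cannot be told apart.

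When yeast exhaust glucose they pass through the diauxic shift. They turn from fermenting glucose to respiring the ethanol they had made, and later stop dividing. Glucose-repressed genes for gluconeogenesis, the glyoxylate cycle and respiration, together with genes driven by the stress factors Msn2 and Msn4, are then switched on, and ribosomal protein genes are switched off. Fresh glucose reverses both programs through the Ras and protein kinase A pathway, the TORC1 pathway and the Snf1 and Mig1 pathway. Many enzymes of central metabolism come as isoenzyme pairs, of which one member is used in glucose and the other is glucose-repressed.

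Values are TPM, the transcript abundances of Salmon scaled to a fixed total, which are shares of each library, and fold changes are log2(TPM + 1) at 6 h minus that at 0 h. Libraries of one group correlated at a Pearson r of 0.991 to 0.992 at 6 h and of 0.975 to 0.981 at 0 h over genes, against 0.742 to 0.765 between the groups. Added spike-in RNAs took 0.489, 0.459 and 0.399% of the TPM at 6 h (libraries A, B and C), against 0.761, 1.06 and 0.827% at 0 h (libraries A, B and D). Every 6 h library had a lower spike-in share than every 0 h library, and scaling to the spike-ins raised log2 fold changes by a median of 0.93 over genes and by at most 0.97, with smaller shifts for low genes because of the pseudocount. One mix of spike-ins was added to the RNA of all vehicle samples, in an amount not given in the sources used here, and whether the difference reflects the mRNA content of a cell was not tested.

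Of 5997 genes tested by limma, 1663 (27.7%) rose and 2540 (42.4%) fell at a Benjamini-Hochberg adjusted p under 0.05. At least 2-fold changes were called in 711 genes (11.9%) that rose and 1371 genes (22.9%) that fell. The split depends on the scale. Calls that rose made up 39.6% of all calls on the TPM scale, 51.0% after centring each library on its median gene, 56.2% after removal of a trend on coding length and 79.8% after scaling to the spike-ins. The percentages of all genes called (27.7% and 42.4%) are the background for the counts of each list that follows. The median over all genes was -0.18 on the TPM scale, 0.02 after centring, 0.12 after removal of the length trend and 0.72 after spike-in scaling.

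The falls reached much further than the rises. In 32 genes the level fell by at least 64-fold, and none rose by as much. The lowest fold change belonged to DPA10, a small open reading frame, with 12.4, 4.32 and 6.32 TPM in the 6 h libraries, against 9055, 9076 and 12478 TPM in the 0 h libraries. Its log2 fold change was -10.29 ± 0.42 (here and below ± after a log2 fold change is the SE), with an adjusted p of 2.25e-14. SIP18, which encodes a hydrophilin that protects drying cells, had 9.94, 6.33 and 8.33 TPM at 6 h, against 5536, 9476 and 4129 TPM at 0 h (-9.37 ± 0.47). The groups lay far apart for both genes, and the same held for the other 10 genes with the deepest falls among those averaging at least 10 TPM. These were PCK1, SPG4, MLS1, SPG1, GRE1, SFC1, HSP26, EGO4, FIT3 and HSP30, with log2 fold changes from -8.92 for PCK1 to -7.34 for HSP30. They encode enzymes and a carrier of growth on ethanol or acetate (PCK1, MLS1, SFC1), proteins of stationary phase (SPG4, SPG1), a hydrophilin (GRE1), heat shock proteins (HSP26, HSP30), a cell wall mannoprotein that retains iron carriers (FIT3) and a relative of a subunit of the EGO complex, which acts on TORC1 (EGO4).

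The 12 genes with the greatest rises were of a mixed kind. UTR2, which encodes a cell wall transglycosylase that joins chitin to glucan, had 427, 442 and 442 TPM at 6 h, against 23.3, 20.1 and 18.4 TPM at 0 h (4.35 ± 0.12). ENO2, the enolase used in glucose, had 4073, 4453 and 4717 TPM at 6 h, against 333, 230.2 and 175 TPM at 0 h (4.21 ± 0.21). SSA2, a cytosolic Hsp70 made in growing cells, reached 943, 1085 and 1144 TPM at 6 h, against 80.0, 66.8 and 54.3 TPM at 0 h (3.97 ± 0.20). In each of these genes the lowest 6 h library stood more than 10-fold above the highest 0 h library. SSA2 shares 96.4% of its coding bases with SSA1, and the sum of both rose by less (1.74 on the log2 scale). BAR1, the protease with which a cells destroy alpha factor, and HXT3, a low-affinity glucose carrier, rose by 3.65 and 3.39. Of the remaining 7 genes, 5 are small nucleolar RNAs (SNR49, SNR38, SNR72, SNR63 and SNR64, 3.67 to 4.35). Such RNAs mostly lack poly(A) tails, so their values in these poly(A)-selected libraries are uncertain. The others are the little characterised reading frames YMR001C-A (4.68) and YGR025W (3.34). At 0 h YMR001C-A had 0, 0 and 1.01 TPM, SNR38 had 0, 0 and 3.87 TPM and SNR72 had 0, 3.55 and 0 TPM. The sizes of these rises therefore depend on the pseudocount.

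**Figure D1:**
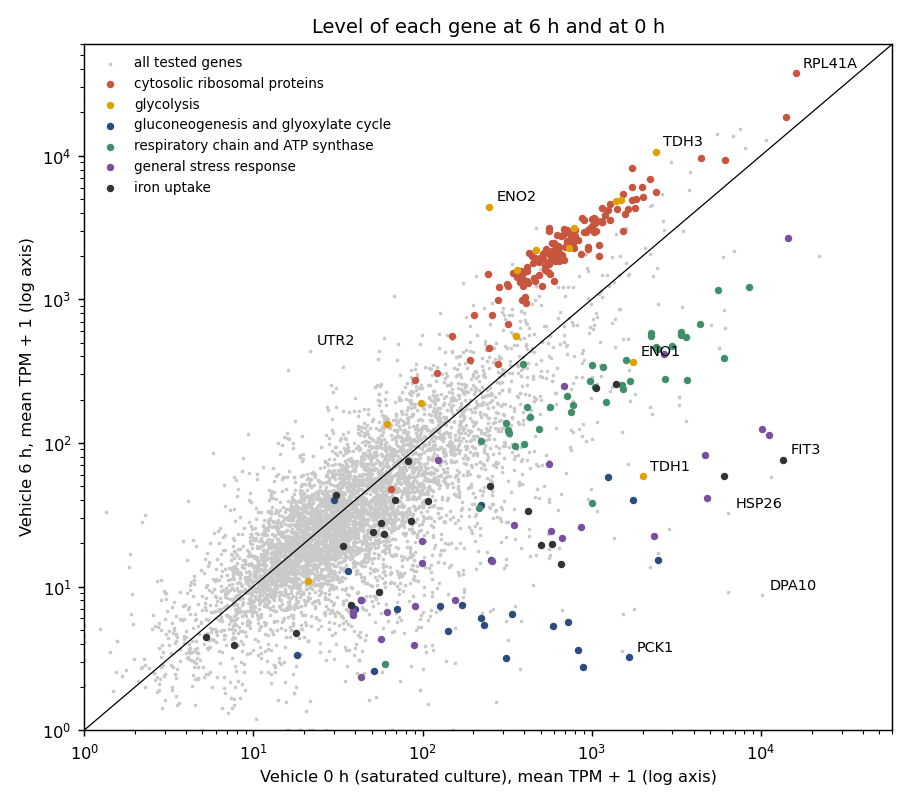
Mean TPM + 1 of each tested gene at 6 h (vertical, log axis) against that at 0 h (horizontal, log axis), 3 libraries each, with equality as a line and members of 6 gene groups coloured. Cytosolic ribosomal protein genes lie above the line almost without exception, and gluconeogenic and general stress genes lie far below it, down to DPA10 at 7.69 TPM against 10203 TPM.

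Ribosomal protein genes rose nearly as one block. Of 81 large-subunit genes 79 rose and 1 fell, with a median log2 fold change of 1.70, and of 56 small-subunit genes 55 rose and 0 fell, with a median of 1.74. RPL9A had 1546, 1465 and 1474 TPM at 6 h, against 269, 227 and 231 TPM at 0 h (2.62 ± 0.10), and RPS22A had 3275, 3080.3 and 3029.8 TPM at 6 h, against 639, 464 and 569 TPM at 0 h (2.50 ± 0.10). The lowest 6 h library was more than 4-fold above the highest 0 h library in both genes. Most ribosomal proteins are made from a pair of near-identical genes, so the division of reads within a pair is uncertain. RPL7A (2.32), RPL22A and RPL8B followed among the large-subunit genes, and RPS9B, RPS20, RPS26B and RPS17B among the small-subunit genes (2.13 to 2.43). The exceptions were RPL15B, which fell by 0.43 on the log2 scale but stood at 0.52 after spike-in scaling and lost its call when library A or D at 0 h or library A or B at 6 h was left out, RPS14B (0.39 ± 0.18, adjusted p of 0.0623 on the TPM scale, called higher after median centring or spike-in scaling) and RPL41B. Together the large-subunit genes took 24.2 ± 1.010% of the TPM at 6 h, against 8.88 ± 0.916% at 0 h (mean ± SD, n = 3 each). The small-subunit genes took 15.7 ± 0.0693% at 6 h, against 5.16 ± 0.357% at 0 h. The Rap1 core ACCCANACA, with N for any base, was sought in the 300 bases before the start codon. It lay before 14 of 81 large-subunit genes (17.3%) and 5 of 56 small-subunit genes (8.93%), against 1.67% of all promoters. RPL9A and RPS22A had none.

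RPL41A and RPL41B, whose coding sequences share 98.7% of their bases, encode the smallest ribosomal protein, and RPL41A was the most abundant transcript of those that rose. RPL41A had 44375, 34232 and 33562 TPM at 6 h, against 21956, 17524 and 8669 TPM at 0 h (1.31 ± 0.40, adjusted p of 0.00606). RPL41B had 21563, 17394 and 16497 TPM at 6 h, against 16461, 16801 and 9220.1 TPM at 0 h, and was not called (0.43 ± 0.36, adjusted p of 0.295). The groups overlapped for RPL41B, library D at 0 h was the lowest for both genes, and how reads of such near copies were divided is uncertain. Leaving both genes out of the total changed the numbers of called genes to 1864 that rose and 2568 that fell.

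Other genes of protein synthesis moved the same way, but by less. All 18 aminoacyl-tRNA synthetase genes rose (median 1.43), led by THS1 with 199.9, 227 and 227 TPM at 6 h, against 45.7, 55.7 and 60.9 TPM at 0 h (2.00 ± 0.16), and by TYS1 (1.89). Of 37 translation factor genes 31 rose and 0 fell (median 0.82). TEF4, a subunit of the elongation factor eEF1B, had 549.8, 565 and 573 TPM at 6 h, against 92.9, 77.7 and 123 TPM at 0 h (2.54 ± 0.18), and EFB1, another subunit, rose by 1.55. TIF1 (1.79) and EFT2 (1.45) also rose, but each has a copy with 99.5% or more of its coding bases in common. Of 24 genes for subunits of RNA polymerases I and III, which make ribosomal and transfer RNA, 18 rose and 2 fell (median 0.61), with RPB8, a subunit of all nuclear RNA polymerases, first (1.35).

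Ribosome assembly genes, whose products process ribosomal RNA in the nucleolus, had a far lower median than ribosomal protein genes. Of 132 genes 59 rose and 9 fell (median 0.38). After spike-in scaling 125 rose and 0 fell (median 1.31), after centring 94 rose and 6 fell, and with the length trend removed 106 rose and 2 fell. The counts also moved with single saturated libraries, since 32 rose and 17 fell without library B at 0 h and 87 rose without library D at 0 h. NOP58, a core protein of box C/D small nucleolar particles, had 211, 237 and 239 TPM at 6 h, against 73.6, 54.6 and 124 TPM at 0 h (1.52 ± 0.22). Its partner NOP56 had 214, 238 and 244 TPM at 6 h, against 78.3, 69.9 and 123 TPM at 0 h (1.39 ± 0.17). The groups did not overlap, but library D at 0 h stood well above the other saturated libraries in both. Assembly genes are known for a pair of promoter elements, PAC (GATGAG) and RRPE (core AAATTTT). In the 300 bases before the start codon, on either strand, GATGAG was found in 114 of 132 assembly genes, or 86.4%, against 18.8% of 5878 promoters of tested genes. AAATTTT was found in 123 genes, or 93.2%, against 24.7% of all promoters. The stretches around the PAC element of the leading genes are given to show it in place, 5′ to 3′ on the coding strand, with GATGAG or its complement in capitals (R64; chrXV:898457-898502, minus strand for NOP58 and chrXII:545950-545995, plus strand for NOP56).
NOP58: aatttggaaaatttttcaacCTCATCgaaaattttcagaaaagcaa
NOP56: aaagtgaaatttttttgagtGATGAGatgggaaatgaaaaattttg

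Genes for the ribosome of mitochondria mostly fell on the TPM scale, a direction that turned with spike-in scaling. Of 75 genes 0 rose and 52 fell (median -0.57), but after spike-in scaling 26 rose and 2 fell (median 0.38). MRP8 (-1.62), MRPL33 (-1.47) and MRP20 (-1.42) had the deepest falls of the list. Whether the product of MRP8 is part of this ribosome is not established by these data. MRPL33 had 158, 140.0 and 144 TPM at 6 h, against 472, 369 and 395 TPM at 0 h.

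**Figure D2:**
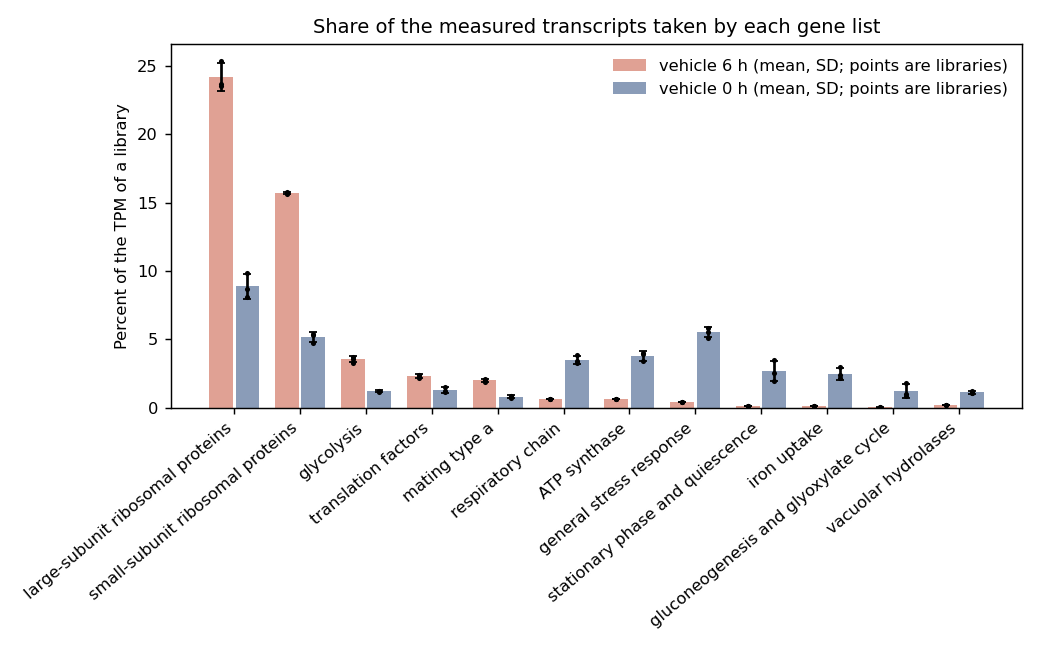
Percent of the TPM of a library taken by 12 gene lists at 6 h (left bar) and at 0 h (right bar), as means with SD over 3 libraries, shown as points. Large-subunit ribosomal protein genes took 24.2% at 6 h against 8.88% at 0 h, and general stress genes 0.407% against 5.51%.

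Hexose carrier genes changed in both directions. HXT3 and HXT1, low-affinity carriers induced by glucose, both rose. HXT3 had 358, 335 and 325 TPM at 6 h, against 48.0, 28.0 and 22.8 TPM at 0 h (3.39 ± 0.18), and HXT1 had 61.9, 60.2 and 57.6 TPM at 6 h, against 14.1, 16.8 and 7.80 TPM at 0 h (2.19 ± 0.18). Among 10 high-affinity or glucose-repressed carriers 3 rose and 5 fell, not far from the 27.7% and 42.4% of all genes. Their median of -0.36 turned to 0.39 after spike-in scaling. HXT5, the carrier of slow-growing and starved cells, had 4.69, 5.16 and 4.49 TPM at 6 h, against 278, 333 and 319.7 TPM at 0 h (-5.75 ± 0.16). HXT2, a high-affinity carrier induced at low glucose, had 252, 253 and 251 TPM at 6 h, against 41.5, 26.5 and 15.7 TPM at 0 h (3.23 ± 0.21), so that this high-affinity gene moved with the low-affinity ones. HXT4 (1.71) also rose, but its 0 h libraries ran from 8.48 to 85.3 TPM and its call was lost when the spread was taken from the 6 libraries alone. The Mig1-type letters GCGGGG lay in the 300 bases before 0 of the 10 high-affinity or glucose-repressed carriers, against 3.05% of all promoters.

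HXT6 and HXT7 share 99.8% of their coding bases, and they were assigned opposite changes. HXT6 had 10.8, 21.7 and 8.54 TPM at 6 h, against 768, 614 and 547 TPM at 0 h (-5.54), and HXT7 had 259, 271 and 257 TPM at 6 h, against 302, 55.01 and 125 TPM at 0 h (1.03). The groups overlapped for HXT7, whose call was lost, at 0.43, without library B at 0 h (0.0139 as adjusted p with all libraries). The division of reads between such copies is uncertain, so the sum of both is also given. It was 269.8, 293 and 266 TPM at 6 h, against 1069, 669 and 671 TPM at 0 h, a difference of -1.50 on the log2 scale, with every 6 h library below every 0 h library. Genes of glucose sensing and repression mostly fell (3 rose and 13 fell of 18), but their median of -0.67 became 0.21 after spike-in scaling. REG2, a regulatory subunit of the Glc7 phosphatase, fell most (2.83, 3.18 and 3.67 TPM at 6 h, against 309, 228 and 418 TPM at 0 h, -6.20 ± 0.21). STD1, which acts in the induction of hexose carriers by glucose, rose by 1.90.

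Most glycolytic genes rose. Of 14 genes 11 rose and 3 fell (median 1.68), and as a list they took 3.54 ± 0.223% of the TPM at 6 h, against 1.22 ± 0.0760% at 0 h. PGK1 had 2058, 2250.3 and 2343 TPM at 6 h, against 489, 575 and 345 TPM at 0 h (2.27 ± 0.19), and TDH3 had 9788, 10857 and 11292 TPM at 6 h, against 2539, 2387 and 2228 TPM at 0 h (2.16 ± 0.16). The 3 that fell were TDH1, ENO1 and PYK2, of which PYK2 (-0.93) was not called after spike-in scaling (-0.03). TDH1, a glyceraldehyde 3-phosphate dehydrogenase of non-dividing cells, had 51.5, 61.3 and 59.9 TPM at 6 h, against 2183, 1787 and 2038 TPM at 0 h (-5.10 ± 0.14). ENO1 had 329, 359.9 and 409.9 TPM at 6 h, against 1878, 1639.5 and 1775 TPM at 0 h (-2.27 ± 0.15). The enolase transcripts together were 4402, 4813 and 5127 TPM at 6 h, against 2211, 1869.7 and 1951 TPM at 0 h. The sum thus changed by less than either gene did alone (1.25 on the log2 scale).

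Among the 4 genes of the hexose kinase list 1 rose and 3 fell, with a median of -0.70 that turned to 0.25 after spike-in scaling. HXK2, the hexokinase of glucose-grown cells, had 517, 577 and 584 TPM at 6 h, against 123, 122 and 172 TPM at 0 h (2.02 ± 0.20). GLK1, a glucose-repressed glucokinase, had 65.7, 78.8 and 79.8 TPM at 6 h, against 369, 470.5 and 409 TPM at 0 h (-2.46 ± 0.13). HXK1 had 99.0, 122 and 123 TPM at 6 h, against 243, 245 and 209.8 TPM at 0 h (-1.02 ± 0.14), but it was not called after spike-in scaling (-0.06). HXK1, HXK2 and GLK1 together had 681, 778 and 787 TPM at 6 h, against 734, 838 and 791 TPM at 0 h, and these sums overlapped between the groups.

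Apart from the pseudocount, ratios of 2 genes within a library do not depend on the scale of the library. In 32 pairs compared, the member taken to be that of growing cells was written first. The pairs were drawn up with earlier results of these data known. The log2 ratio was higher in every 6 h library than in every 0 h library for 27, lower for 4 and overlapping for 1. Because of that choice and order, these counts and the p-values of the pairs only describe them and are no independent support. An exact two-sided permutation test of 3 against 3 libraries cannot go below 0.10, a value that 31 pairs reached (adjusted over the pairs, 0.103). In 14 pairs the order of the mean levels turned. For ENO2/ENO1 the log2 ratio was 3.63, 3.63 and 3.52 at 6 h, against -2.49, -2.83 and -3.33 at 0 h. For HXK2/GLK1 it was 2.96, 2.86 and 2.86 at 6 h, against -1.58, -1.94 and -1.25 at 0 h. For SSA2/SSA4, an Hsp70 of growing cells and one induced by stress, it was 5.74, 5.74 and 5.77 at 6 h, against -1.33, -0.23 and -1.33 at 0 h. Each pair was thus led by its first gene at 6 h and by its second gene at 0 h. The largest difference was that of PDC1/PDC6, pyruvate decarboxylases (9.02), and its size depends on the pseudocount, since PDC6 was under 1 TPM at 6 h (6.31 with 10 TPM and 10.25 with 0.1 TPM).

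Further pairs had a higher ratio at 6 h. The differences were 7.94 for HXT1/HXT5, 7.25 for TDH3/TDH1, 6.49 for the 6-phosphogluconate dehydrogenases GND1/GND2, 5.80 for the alcohol dehydrogenases ADH1/ADH2 and 4.66 for the mitochondrial pyruvate carriers MPC2/MPC3. In CYC1/CYC7, the cytochromes c, the ratio was 3.29, 3.14 and 3.28 at 6 h, against -1.81, -1.23 and -0.96 at 0 h. CYC1 itself was not called on the TPM scale (-0.14 ± 0.15, 95% interval -0.45 to 0.18), while CYC7 fell by 4.70. In FKS1/GSC2, catalytic subunits of glucan synthase, the ratio differed by 4.11, and GSC2 fell by 3.66. The 4 pairs with a lower ratio at 6 h were POR1/POR2, the mitochondrial porins (-2.27), the glutaredoxins GRX1/GRX2 (-0.999), the cytochrome c oxidase subunits COX5A/COX5B (-0.78) and the glycogen synthases GSY2/GSY1 (-0.64). HYP2/ANB1, the genes of translation factor eIF5A of which ANB1 is known from oxygen-poor cells, did not separate the groups (0.03, exact permutation p of 0.9). Coding bases shared within these pairs ran up to 94.8% for ENO2/ENO1. Some members have closer copies outside their pair, so their ratios rest on an uncertain division of reads. These are TDH3 with TDH2 (95.8%), SSA2 with SSA1 (96.4%), SSB1 with SSB2 (97.4%) and HXT7 with HXT6 (99.8%).

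**Figure D3:**
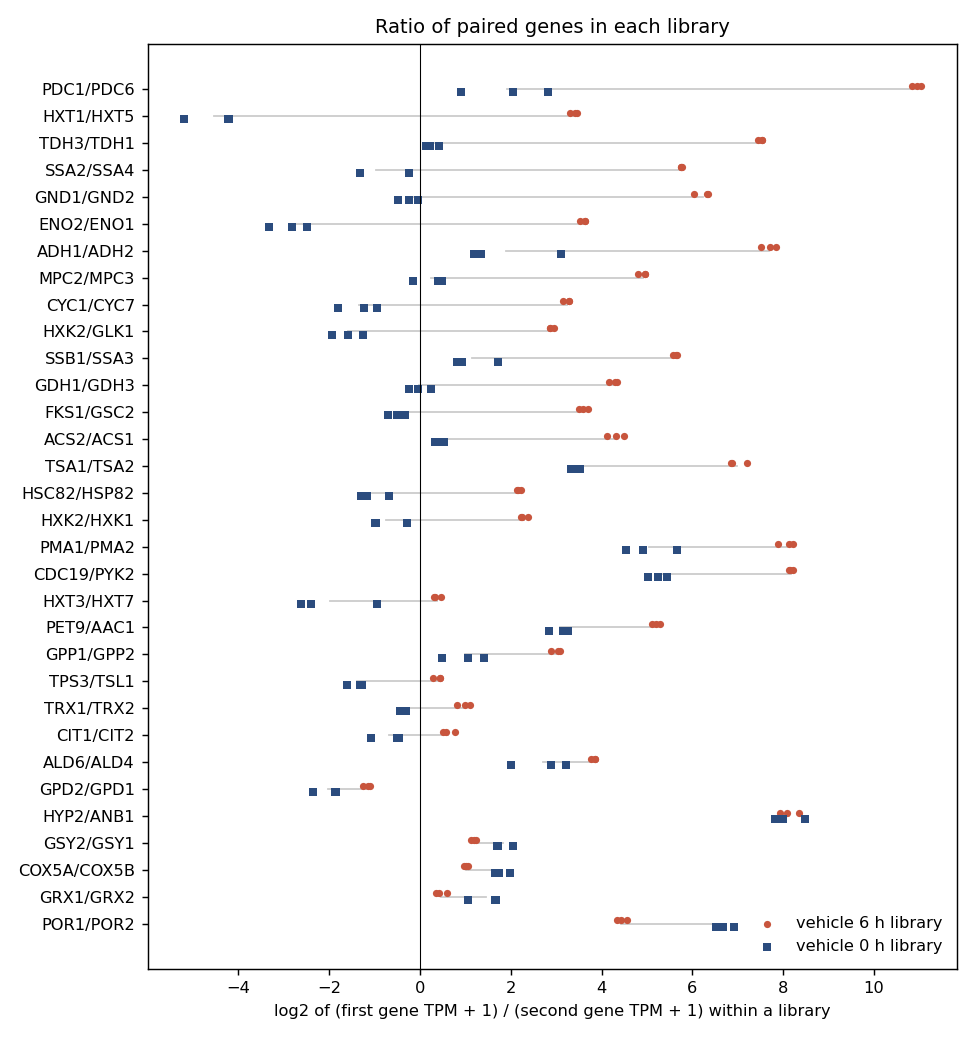
Log2 ratio of the first to the second gene of 32 pairs, from TPM + 1 within each library, for the 3 libraries of 6 h (circles) and the 3 of 0 h (squares), ordered by the difference of the means. In 27 pairs all circles lie right of all squares, from ENO2/ENO1 near 3.59 at 6 h against -2.88 at 0 h, and POR1/POR2 shows the greatest shift to the left.

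Gluconeogenesis and the glyoxylate cycle, by which cells make sugar from ethanol and acetate, had the lowest median of all 53 lists. Of 24 genes 23 fell, all 23 by at least 2-fold, and 1 rose (median -4.59). PCK1, the gluconeogenic phosphoenolpyruvate carboxykinase, had 2.02, 2.42 and 2.20 TPM at 6 h, against 1371, 1077 and 2553 TPM at 0 h (-8.92 ± 0.35). MLS1, malate synthase of the glyoxylate cycle, had 1.77, 1.78 and 1.75 TPM at 6 h, against 635, 696 and 1339 TPM at 0 h (-8.25 ± 0.28). ICL1, isocitrate lyase, had 13.4, 13.997 and 15.6 TPM at 6 h, against 1543, 2124 and 3720.2 TPM at 0 h (-7.23 ± 0.27). Library D was the highest of the saturated libraries in each of these genes, and no groups overlapped. SFC1, a mitochondrial carrier of succinate and fumarate, and FBP1, fructose-1,6-bisphosphatase, fell by 7.76 and 6.91. The gene that rose was ATO3 (0.45), an ammonium exporter by its usual description, whose call was lost without library A at 0 h (0.31). The list held 0.0284 ± 0.000765% of the TPM at 6 h, against 1.25 ± 0.504% at 0 h. After spike-in scaling its median was -3.65 and 23 genes still fell.

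Respiration fell as a whole, though less steeply. Of 17 genes of the tricarboxylic acid cycle 15 fell and 1 rose (median -2.31), of 23 of the respiratory chain 22 fell and 0 rose (median -2.38), and of 17 of the ATP synthase all 17 fell (median -2.10). CIT1, mitochondrial citrate synthase, had 81.6, 88.1 and 94.1 TPM at 6 h, against 661, 849 and 763 TPM at 0 h (-3.09 ± 0.16). COX9, a subunit of cytochrome c oxidase, had 1340.2, 1093 and 1206 TPM at 6 h, against 9452, 8473 and 7723 TPM at 0 h (-2.82 ± 0.14). The groups were far apart in both. CYC7 (-4.70), NDE2, an external NADH dehydrogenase (-4.37), and QCR10 (-3.27) fell further. In the ATP synthase list the leading genes were STF2 (-3.84) and STF1 (-3.74), which act on the inhibitor of the enzyme and are not part of its catalytic core. ATP synthase genes took 0.666 ± 0.0109% of the TPM at 6 h, against 3.79 ± 0.343% at 0 h. Medians stayed below 0 after spike-in scaling, at -1.34, -1.41 and -1.14 for the cycle, the chain and the synthase.

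Oxidation of fatty acids and peroxisomes followed, with 20 of 23 genes falling and 1 rising (median -1.45). SPS19, an auxiliary enzyme of beta oxidation, fell by 3.03, and PXA1, part of the peroxisomal importer of fatty acids, fell by 2.47. In fermentation 4 of 7 genes rose and 2 fell. PDC1, the main pyruvate decarboxylase, had 2912, 3145 and 3185 TPM at 6 h, against 969.7, 813 and 1007 TPM at 0 h (1.73 ± 0.17). ADH1 had 3035, 3364 and 3069 TPM at 6 h, against 817, 811 and 790.1 TPM at 0 h (1.97 ± 0.16). PDC6 had 0.579, 0.504 and 0.609 TPM at 6 h, against 137, 433 and 242 TPM at 0 h (-7.29 ± 0.35), and ADH2, which oxidises ethanol, had 15.6, 15.1 and 12.3 TPM at 6 h, against 93.7, 353 and 309 TPM at 0 h (-3.84 ± 0.30). PDC1 and ADH1 thus rose while PDC6 and ADH2 fell, but the order within each pair did not turn. At 0 h PDC1 still stood above PDC6 and ADH1 above ADH2, with mean log2 ratios of 1.92 and 1.89. The other member of the fermentation list that fell was ADH5, a minor alcohol dehydrogenase (-1.14 ± 0.19), which was not called after spike-in scaling (-0.21).

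Most reserve carbohydrate genes fell on the TPM scale. In glycogen metabolism all 12 genes fell (median -2.44), those of synthesis and breakdown alike. GLC3, the branching enzyme, had 10.8, 12.4 and 12.8 TPM at 6 h, against 171, 188 and 155 TPM at 0 h (-3.72 ± 0.14), and GPH1, glycogen phosphorylase, had 9.89, 13.2 and 12.5 TPM at 6 h, against 89.2, 99.4 and 74.7 TPM at 0 h (-2.79 ± 0.15). GAC1, a regulatory subunit that directs the Glc7 phosphatase to glycogen synthase, fell by 3.93. Among 9 trehalose genes 7 fell and 2 rose (median -1.22), but after spike-in scaling 3 fell and 2 rose (median -0.28). TPS1, trehalose 6-phosphate synthase, fell by 1.26 and TSL1 by 1.22, but both lost the call after spike-in scaling (-0.30 and -0.28). In glycerol metabolism 6 of 11 genes fell and 1 rose, and the median of -0.76 became 0.20 after spike-in scaling. STL1, the glycerol symporter, fell by 3.51, and GPP1, glycerol 3-phosphatase, rose by 1.26.

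All 26 genes of the general stress response list fell, 25 of them by at least 2-fold (median -3.70). The list shares TFS1, AMS1 and PAI3 with that of vacuolar hydrolases. SPI1, a cell wall protein of starved cells, had 37.4, 42.6 and 40.6 TPM at 6 h, against 5392, 3630.3 and 5414 TPM at 0 h (-6.85 ± 0.16). DDR2, a small stress-induced protein, had 113, 123 and 102 TPM at 6 h, against 10765, 12007 and 10704 TPM at 0 h (-6.62 ± 0.19). HSP12, a membrane-binding heat shock protein, had 79.0, 92.2 and 72.6 TPM at 6 h, against 4045, 6004 and 3934 TPM at 0 h (-5.80 ± 0.19). Every 0 h library was more than 40-fold above every 6 h library in these 3 genes. The list took 0.407 ± 0.0106% of the TPM at 6 h, against 5.51 ± 0.361% at 0 h, and 24 of the 26 genes still fell after spike-in scaling (median -2.75).

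Msn2 and Msn4 bind the stress response element AGGGG, or CCCCT on the other strand. In the 300 bases before the start codon it stood at least once in 22 of 26 of these genes (84.6%), against 22.4% of all 5878 promoters, and at least 2 times in 12 of the 26, against 3.47% of all. Among stationary phase genes 11 of 30 held it (36.7%). TMA10, HSP26 and SIP18 have no such letters in this window. Clustered elements of the following genes are shown with AGGGG or its complement in capitals, 5′ to 3′ on the coding strand (R64; chrXV:231906-232023, minus strand for DDR2, chrV:468085-468136, plus strand for SPI1 and chrVI:107004-107090, plus strand for HSP12).
DDR2: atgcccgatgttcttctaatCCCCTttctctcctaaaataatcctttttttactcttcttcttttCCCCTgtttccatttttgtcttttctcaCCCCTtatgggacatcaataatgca
SPI1: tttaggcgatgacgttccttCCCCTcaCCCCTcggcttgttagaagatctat
HSP12: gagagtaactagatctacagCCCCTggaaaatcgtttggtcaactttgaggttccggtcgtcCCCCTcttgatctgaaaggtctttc

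Stationary phase genes fell with them, 27 of 30, while 2 rose (median -3.33). SPG4 had 1.89, 2.46 and 3.33 TPM at 6 h, against 1429, 2121 and 995 TPM at 0 h (-8.69 ± 0.38), and HSP30, a plasma membrane stress protein that restrains the proton pump, had 12.04, 13.9 and 11.9 TPM at 6 h, against 2691, 2016 and 1954 TPM at 0 h (-7.34 ± 0.18). No 6 h library came near any 0 h library. The 2 that rose were SPG3 (1.70) and POR2 (0.66). The list took 0.106 ± 0.00119% of the TPM at 6 h, against 2.68 ± 0.754% at 0 h.

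**Figure D4:**
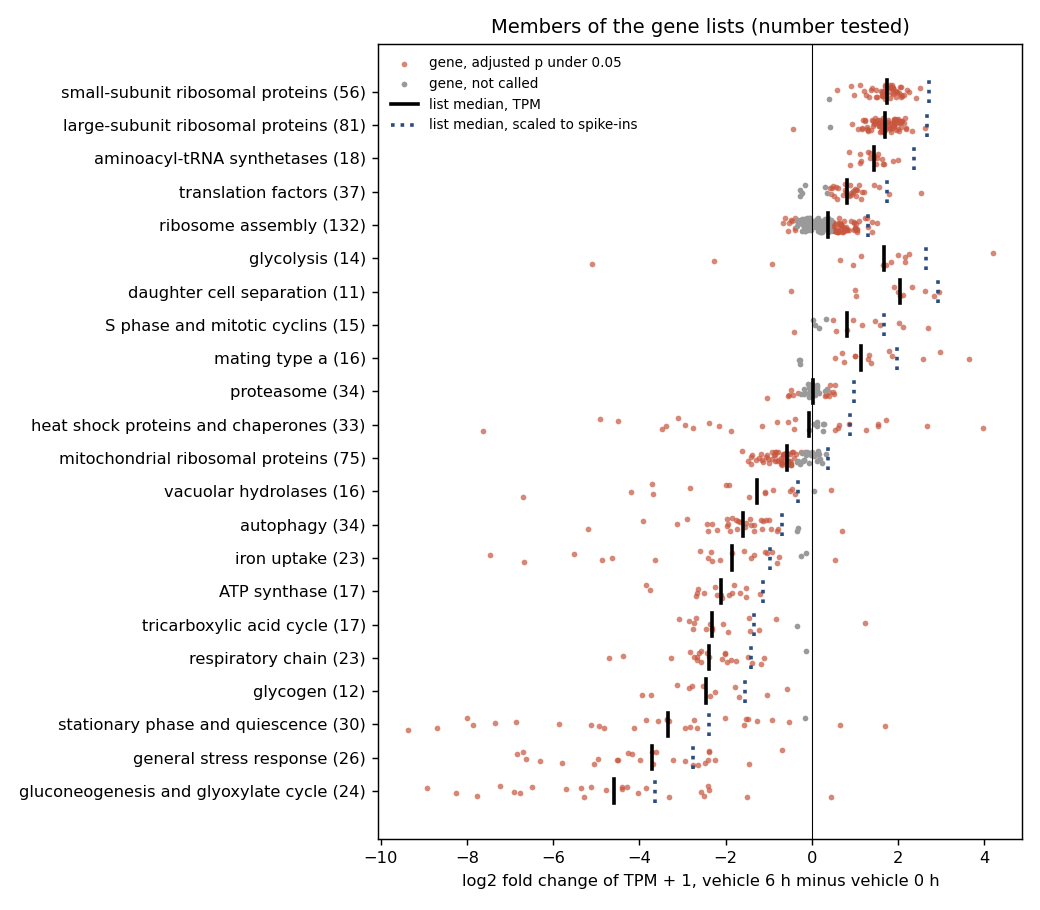
Log2 fold change of TPM + 1, 6 h minus 0 h, of each tested member of 22 lists (points, coloured where the adjusted p was under 0.05), with the list median on the TPM scale (solid bar) and after spike-in scaling (dotted bar). Medians run from 2.04 for daughter cell separation genes to -4.59 for gluconeogenesis and the glyoxylate cycle, with 1.74 for small-subunit ribosomal protein genes. The dotted bar of mitochondrial ribosomal protein genes lies right of 0 at 0.38.

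Chaperone genes changed in both directions. Of 33 genes 10 rose and 16 fell, shares close to the 27.7% and 42.4% of all genes. The median was -0.07 on the TPM scale, 0.13 after centring, 0.17 after removal of the length trend and 0.89 after spike-in scaling. HSP26, a small heat shock protein that holds aggregates, had 28.1, 33.7 and 32.7 TPM at 6 h, against 7452, 5392 and 6401 TPM at 0 h (-7.62 ± 0.18). HSP42, the other small heat shock protein, fell by 3.47. SSA2 rose by 3.97, and SSB1, an Hsp70 of the ribosome, had 768, 833 and 859 TPM at 6 h, against 237, 224 and 423 TPM at 0 h (1.54 ± 0.21). HSC82, the constitutive Hsp90, had 702, 836 and 869 TPM at 6 h, against 131, 144 and 102 TPM at 0 h (2.68 ± 0.20). HSP82, its heat-inducible copy, had 149, 189 and 192 TPM at 6 h, against 297, 232 and 252 TPM at 0 h (-0.56 ± 0.19), a fall that turned to 0.41 after spike-in scaling and lost its call without library A at 6 h (-0.44) or library A at 0 h (-0.46). SSA2 shares 96.4% of its coding bases with SSA1, so the division of reads between them is uncertain. Their sum was 1297, 1496 and 1580 TPM at 6 h, against 430, 515 and 369 TPM at 0 h (1.74 on the log2 scale). In the defence against oxidants 20 of 31 genes fell and 7 rose on the TPM scale (median -1.22), but 15 fell and 11 rose after spike-in scaling (median -0.25). GPX1 was lowest (15.1, 12.6 and 11.5 TPM at 6 h, against 324, 343 and 268 TPM at 0 h, -4.48 ± 0.15). TSA1, the main cytosolic peroxiredoxin, rose by 0.83 while TSA2 fell by 2.69.

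The systems that break down protein behaved in different ways. Among 34 proteasome genes, counting the transcription factor RPN4, 8 rose and 6 fell with a median of 0.03, and RPN4 itself fell by 1.04 (not called after spike-in scaling, -0.08). PRE1, a catalytic-core subunit, had 240.2, 258 and 263 TPM at 6 h, against 169.5, 187 and 179 TPM at 0 h (0.50 ± 0.13). This balance depends on the scale, since 29 rose and 0 fell after spike-in scaling and 27 rose and 2 fell after removal of the length trend. The element bound by Rpn4, GGTGGCAAA, lay in the 300 bases before 27 of the 34 genes (79.4%), against 1.22% of all promoters. Of the ubiquitin genes, UBI4, which encodes a string of ubiquitin units and serves starved cells, had 67.3, 73.1 and 79.5 TPM at 6 h, against 547, 576 and 552 TPM at 0 h (-2.91 ± 0.09). RPS31, RPL40A and RPL40B, which make ubiquitin fused to a ribosomal protein and are also members of the ribosomal lists, rose (1.24 to 1.89). RPS31 had 6021, 5104 and 5156 TPM at 6 h, against 1566, 1725 and 1277 TPM at 0 h. UBI4 was thus lower and the fusion genes higher at 6 h. The fusion genes had higher means than UBI4 at 0 h as well. These means were 1523 TPM for RPS31, 948 for RPL40A and 596 for RPL40B, against 558 TPM for UBI4.

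Autophagy genes fell in 31 of 34 cases and rose in 1 (median -1.61). ATG8, whose product coats the autophagosome, had 35.9, 49.9 and 42.8 TPM at 6 h, against 688, 663 and 609 TPM at 0 h (-3.91 ± 0.16). ATG39, a receptor for autophagy of the nucleus, had 5.27, 6.10 and 5.92 TPM at 6 h, against 243, 294 and 209.5 TPM at 0 h (-5.20 ± 0.23). Both sets of libraries stood well apart. The gene that rose was ATG27 (0.70). Of 16 genes of vacuolar hydrolases and their inhibitors 14 fell and 1 rose on the TPM scale (median -1.27). After spike-in scaling 8 fell and 4 rose (median -0.31). PRB1, proteinase B, had 28.4, 37.2 and 34.5 TPM at 6 h, against 545, 565 and 786 TPM at 0 h (-4.19 ± 0.19). PAI3, an inhibitor of proteinase A, fell furthest (-6.70), and PBI2, an inhibitor of proteinase B, fell by 2.83, so that enzymes and inhibitors fell together.

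Iron uptake genes were among the most changed. Of 23 genes 20 fell and 1 rose (median -1.85), and the list took 0.110 ± 0.00124% of the TPM at 6 h, against 2.51 ± 0.438% at 0 h. FIT3 had 85.5, 69.8 and 70.5 TPM at 6 h, against 12619, 11560.0 and 16422 TPM at 0 h (-7.46 ± 0.14), and FIT2, a related mannoprotein of the cell wall, had 64.5, 55.5 and 54.3 TPM at 6 h, against 5947, 5141 and 7021 TPM at 0 h (-6.67 ± 0.15). ARN2 and ARN1, which import iron bound to siderophores, fell by 5.52 and 4.63, and TIS11, which destroys messengers of iron-using proteins, fell by 4.87. All 0 h libraries were more than 20-fold above the 6 h libraries in FIT2, FIT3 and ARN2. FRE1, a reductase of iron and copper, rose (0.55), but its call was lost without library B at 0 h (0.24). These genes are known targets of Aft1, which binds a core of GCACCC. In the 300-base window this core was found in 15 of 23 genes (65.2%), against 4.10% of all promoters, and the window before ARN2 holds none. The FIT stretches with their cores (GCACCC or its complement in capitals) are shown because these genes had the deepest falls of the list, and a further core before FIT2 lies outside its printed stretch (R64; chrXV:1061214-1061355, minus strand for FIT3 and chrXV:1059246-1059308, plus strand for FIT2).
FIT3: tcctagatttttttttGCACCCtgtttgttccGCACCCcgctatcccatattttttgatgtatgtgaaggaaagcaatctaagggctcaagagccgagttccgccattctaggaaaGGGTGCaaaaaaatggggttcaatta
FIT2: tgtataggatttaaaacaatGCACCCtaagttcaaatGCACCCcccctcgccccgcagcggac

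Other nutrient systems gave mixed pictures. In the zinc regulon 4 genes rose and 7 fell of 11 (median -0.91, and 0.05 after spike-in scaling). ZPS1, a cell surface protein of zinc-poor or alkaline medium, had 906, 719 and 1112 TPM at 6 h, against 166, 196 and 228 TPM at 0 h (2.20 ± 0.17), while IZH1 fell by 2.35. In phosphate handling 6 rose and 8 fell of 22, not far from the 27.7% and 42.4% of all genes. The median was -0.22, but 0.23 after removal of the length trend and 0.70 after spike-in scaling. PHO3, an acid phosphatase of phosphate-rich medium, had 239, 244 and 235 TPM at 6 h, against 32.4, 23.2 and 33.8 TPM at 0 h (2.98 ± 0.12). PHO84, the high-affinity phosphate carrier, had 172, 178 and 171 TPM at 6 h, against 124, 248 and 672 TPM at 0 h and was not called (-0.66 ± 0.34, adjusted p of 0.0858), its saturated libraries differing more than 5-fold among themselves. Without library A at 0 h PHO84 was called, at -1.23.

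Amino acid permease genes were divided. Of 26 genes 7 rose and 14 fell (median -0.55, and 0.38 after spike-in scaling). The share that rose was close to the 27.7% of all genes. GAP1, the general permease of nitrogen-poor cells, had 11.1, 12.5 and 12.8 TPM at 6 h, against 115, 352 and 151 TPM at 0 h (-3.81 ± 0.27). GNP1, a glutamine permease induced by amino acids, had 140.0, 140.4 and 145 TPM at 6 h, against 14.4, 18.8 and 16.98 TPM at 0 h (3.02 ± 0.14). Genes of nitrogen repression and of amino acid breakdown fell in 21 of 30 cases and rose in 2 (median -0.97), but after spike-in scaling 12 fell and 7 rose (median -0.07). GDH3, a glutamate dehydrogenase of cells grown on ethanol, had 8.19, 9.01 and 10.3 TPM at 6 h, against 378, 525 and 442 TPM at 0 h (-5.46 ± 0.16), and PUT1, the first enzyme of proline breakdown, fell by 4.11. MEP2, an ammonium permease, had 8.63, 7.998 and 9.67 TPM at 6 h, against 64.3, 242 and 57.4 TPM at 0 h (-3.32 ± 0.33), with library B far above the other saturated libraries. Sulfate assimilation and methionine genes fell in 18 of 25 cases and rose in 3 (median -1.97). STR3 had 4.32, 4.50 and 3.89 TPM at 6 h, against 48.4, 69.2 and 171 TPM at 0 h (-4.01 ± 0.30), and library D was the highest at 0 h. The list includes MET17, which these cells carry on the plasmid.

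Genes for making building blocks mostly rose. Of 62 genes of amino acid synthesis 35 rose and 13 fell (median 0.54). HIS1, the first enzyme of histidine synthesis, had 309, 327 and 322 TPM at 6 h, against 89.4, 68.1 and 95.9 TPM at 0 h (1.92 ± 0.16), and LEU9 and ARO4 rose by 1.99 and 1.74. CPA1, a subunit of the carbamoyl phosphate synthetase of arginine synthesis, fell by 2.65 and LYS20, a homocitrate synthase, by 1.88. The Gcn4 site TGACTC lay in 62.9% of these 62 promoters, against 7.88% of all. Of 18 purine genes 13 rose and 0 fell (median 0.58), led by IMD2, an IMP dehydrogenase with a close copy in IMD1 (18.5, 19.0 and 22.2 TPM at 6 h, against 1.97, 3.13 and 3.40 TPM at 0 h, 2.46 ± 0.17). Of 11 pyrimidine genes 7 rose and 2 fell. URA5 and URA10 encode the same step, and URA5 had 272, 273 and 267 TPM at 6 h, against 98.3, 117 and 140.2 TPM at 0 h (1.20 ± 0.15), whereas URA10 had 14.1, 10.9 and 12.3 TPM at 6 h, against 328, 290.3 and 284 TPM at 0 h (-4.50 ± 0.13). URA5 thus had the higher level at 6 h and URA10 the higher level at 0 h.

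Lipid genes did not move as one. In fatty acid synthesis 7 of 16 genes rose and 3 fell (median 0.31). OLE1, the only fatty acid desaturase of yeast, had 181, 185 and 183 TPM at 6 h, against 2422, 3929 and 3499 TPM at 0 h (-4.13 ± 0.16). ELO2 and ELO3, which elongate fatty acids for sphingolipids, rose. ELO2 had 213, 227 and 231 TPM at 6 h, against 25.3, 31.6 and 29.0 TPM at 0 h (2.93 ± 0.12), and ELO3 rose by 2.78. In phospholipid synthesis 12 of 22 genes rose and 6 fell (median 0.37). INO1, inositol 3-phosphate synthase, had 18.0, 24.8 and 23.4 TPM at 6 h, against 403, 655 and 589 TPM at 0 h (-4.56 ± 0.18), while EPT1 and CPT1, which complete phosphatidylethanolamine and phosphatidylcholine, rose by 2.13 and 1.74. Of 26 ergosterol genes 11 rose and 5 fell (median 0.22). The number that rose was 7 without library A at 0 h and likewise without library B or C at 6 h, and ERG25 (-1.53) and ERG3 (-1.24) fell most.

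Sphingolipid genes, whose first enzyme is the target of myriocin, were evenly split on the TPM scale, with 12 of 25 rising and 11 falling (median 0.22), whereas 16 rose and 6 fell after spike-in scaling (median 1.13). The 5 with the greatest changes on the TPM scale all fell. They were SUR1 (-2.22), which adds mannose to the head group, the ceramidases YPC1 (-2.21) and YDC1 (-1.81), the sphingoid base phosphatase YSR3 (-1.95) and the hydroxylase SCS7 (-1.68). YPC1 had 13.0, 12.2 and 10.4 TPM at 6 h, against 65.9, 56.8 and 52.4 TPM at 0 h, with no overlap between groups.

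Lists of the cell cycle differed in how many members were called. Of 15 cyclin and mitotic genes 10 rose and 1 fell (median 0.82). CLB2, the main mitotic cyclin, had 54.4, 63.0 and 63.7 TPM at 6 h, against 8.06, 8.82 and 8.53 TPM at 0 h (2.69 ± 0.13), and CDC5, the polo kinase, had 37.4, 41.6 and 38.9 TPM at 6 h, against 6.87, 10.5 and 7.78 TPM at 0 h (2.12 ± 0.17). CDC28, the cyclin-dependent kinase itself, was not called on the TPM scale (0.03 ± 0.17, 95% interval -0.32 to 0.38) but was called higher after spike-in scaling (0.97). Of 13 genes of G1 and Start 6 rose and 2 fell, with FAR1 first (1.78). DNA replication genes rose in 11 of 38 cases and fell in 2 (median 0.22), with a share of rises close to the 27.7% of all genes, and these counts were unstable. After spike-in scaling 37 rose and 0 fell (median 1.13), and with the length trend removed 29 rose and 1 fell. Without library A at 0 h 5 rose, and without library B or C at 6 h 6 rose. Over all such omissions of 1 library the number that rose ran from 5 to 15.

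Genes that part the daughter from the mother rose in 10 of 11 cases and fell in 1 (median 2.04), the highest median of the lists of cell division. CTS1, the chitinase that opens the septum, had 458, 483 and 511 TPM at 6 h, against 92.8, 88.1 and 107 TPM at 0 h (2.33 ± 0.15). DSE2, a daughter-specific wall protein, had 346, 391 and 406 TPM at 6 h, against 47.7, 48.5 and 63.4 TPM at 0 h (2.83 ± 0.17), and EGT2 had 106, 124 and 119.8 TPM at 6 h, against 18.6, 9.27 and 16.7 TPM at 0 h (2.94 ± 0.22). All 6 h libraries were at least 4-fold above all 0 h libraries in these genes.

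Histone genes were unequal. Of 10 genes 5 rose and 1 fell. HTB2 had 1393, 1469.6 and 1491 TPM at 6 h, against 197, 236 and 189 TPM at 0 h (2.81 ± 0.18), whereas HTB1, the other gene for histone H2B, had 1449.7, 1499.9 and 1478 TPM at 6 h, against 1285, 1611 and 1433 TPM at 0 h (0.04 ± 0.16, adjusted p of 0.844), though it too was called higher after spike-in scaling. The H2A genes showed the same contrast. HTA2 rose by 2.23, and HTA1, which is divergently paired with HTB1, fell by 0.77 on the TPM scale but stood at 0.20 after spike-in scaling. Histone mRNAs of yeast carry poly(A) tails, unlike those of animals.

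Cell wall genes rose in 16 of 34 cases and fell in 15 on the TPM scale, whereas 20 rose and 5 fell after spike-in scaling (median 0.13 on the TPM scale and 1.09 after scaling). UTR2, GAS3 (2.46) and CCW12 were higher at 6 h, and PIR3, a wall protein bound by an alkali-sensitive link, had 14.2, 18.5 and 15.6 TPM at 6 h, against 2497, 2363 and 2496 TPM at 0 h (-7.17 ± 0.21). PST1, a wall protein induced by damage, fell by 2.93. CCW12 and CWP2, among the 5 most abundant transcripts that rose, had mean levels of 15415 ± 381 and 13788 ± 228 TPM at 6 h, against 7483 ± 982 and 6886 ± 1655 TPM at 0 h (± SD).

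The mating type of the strain matched the transcripts. Of 16 genes of a cells and the pheromone pathway 13 rose and 0 fell (median 1.15). STE2, the receptor for alpha factor, had 406, 461 and 445 TPM at 6 h, against 51.5, 50.9 and 61.1 TPM at 0 h (2.98 ± 0.13). MFA2, which encodes a factor, had 13256, 15063 and 14259 TPM at 6 h, against 4347, 6349.7 and 5892 TPM at 0 h (1.38 ± 0.12), and STE6, its exporter, rose by 2.58. Genes of alpha cells were all below 50 TPM. MF(ALPHA)1 had 4.80, 3.93 and 4.36 TPM at 6 h, against 19.8, 44.8 and 28.5 TPM at 0 h (-2.51 ± 0.24), STE3 fell by 0.46 but stood at 0.38 after spike-in scaling and lost its call without library C at 6 h (-0.38), and MF(ALPHA)2 and SAG1 were not called. Of 20 genes of meiosis and sporulation 2 rose and 13 fell (median -0.61, and 0.19 after spike-in scaling), from low levels. Of the markers, SPS1 had 1.09, 1.55 and 1.16 TPM at 6 h, against 3.15, 3.67 and 4.27 TPM at 0 h, and SMK1, the highest of 5 markers, had 11.1, 12.3 and 13.2 TPM at 6 h, against 10.7, 11.7 and 13.7 TPM at 0 h. NDT80 and DIT1 fell by 0.66 and 0.76 on the TPM scale but stood at 0.16 and 0.052 after spike-in scaling, and SPO11 was not called (0.32 ± 0.17).

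All 4 genes carried on pHLUM fell on the TPM scale. URA3 had 59.0, 57.0 and 56.1 TPM at 6 h, against 156, 217 and 268 TPM at 0 h (-1.84 ± 0.17), and HIS3 had 497, 513 and 512 TPM at 6 h, against 1127, 961 and 1257 TPM at 0 h (-1.13 ± 0.15). LEU2 had 243, 269 and 266 TPM at 6 h, against 449, 1264 and 605 TPM at 0 h (-1.43 ± 0.25), with library B the highest at 0 h, and MET17 fell by 1.34. The groups did not overlap in any of these 4 genes. After spike-in scaling HIS3, LEU2 and MET17 were no longer called, with values of -0.16, -0.47 and -0.38. Transcripts per plasmid and the number of plasmids in a cell cannot be told apart here.

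Some abundant transcripts kept their share. In 810 genes the 95% interval of the log2 fold change lay within -0.5 to 0.5 on the TPM scale. The most abundant were NCW1, a cell wall protein (2737, 2962 and 3289.7 TPM at 6 h, against 3312, 3779.9 and 3299 TPM at 0 h), CPR1, cyclophilin A (2968, 3013 and 3079.9 TPM at 6 h, against 2554, 2666 and 2789 TPM at 0 h), NOP10, SML1 and FPR1. Their log2 fold changes ran from -0.21 for NCW1 to 0.18 for CPR1, and all 5 were called higher after spike-in scaling (0.76 to 1.15). ACT1, actin, which is often used as a reference, was not among them. It had 852, 964 and 977 TPM at 6 h, against 407, 452 and 469 TPM at 0 h (1.07 ± 0.17).

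The hours between dilution and 6 h were read from the other 15 vehicle libraries, 3 at each hour. These values share the 0 h libraries and are given side by side, with no test. List medians fell into different courses. General stress genes stood at -4.26 at 1 h and -3.70 at 6 h relative to 0 h, and gluconeogenesis and the glyoxylate cycle at -4.29 and -4.59. Small-subunit ribosomal protein genes stood at 1.90 at 1 h and 1.74 at 6 h. Ribosome assembly genes, in contrast, stood at 1.82 at 1 h, 0.78 at 3 h and 0.38 at 6 h. Glycolytic genes began near the saturated level (-0.38 at 1 h) and reached 1.68 at 6 h. Proteasome genes were at -0.96 at 2 h and 0.03 at 6 h.

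A further set lay close to its lowest median through the first hours and nearer to the saturated level at 6 h, in TPM. Hexose kinase genes stood at -4.13 at 1 h, -2.82 at 5 h and -0.70 at 6 h, glycogen genes at -4.02, -3.15 and -2.44, trehalose genes at -2.95, -2.40 and -1.22, and vacuolar hydrolase genes at -2.94, -2.41 and -1.27 at these hours. HXK1 averaged 233 TPM at 0 h, 12.7 at 1 h, 10.7 at 3 h, 16.5 at 5 h and 115 ± 13.5 TPM (SD) at 6 h. HXT7 averaged 160.4, 24.9, 44.3, 52.7 and 262 ± 7.56 TPM at the same hours. Its near copy HXT6 averaged 643, 16.1, 12.3, 10.8 and 13.7 ± 7.03 TPM, and the division of reads between them is uncertain. The sum of both averaged 276 TPM at 6 h, still below the 803 TPM at 0 h. ZRT1, the high-affinity zinc carrier, whose fall at 6 h (-0.57) turned to 0.40 after spike-in scaling, averaged 2448, 567, 179, 331 and 1647 ± 129 TPM. In HXK1, HXT7 and ZRT1, picked after their values were seen, the mean at 6 h was more than 4-fold that at 5 h. HXT1 ran the other way, with 12.9, 219, 191, 111 and 59.9 ± 2.20 TPM. PCK1 averaged 1667, 9.27, 2.41, 1.81 and 2.21 ± 0.198 TPM, and FIT3 averaged 13533, 2243, 476, 105 and 75.3 ± 8.90 TPM, a slower fall than that of PCK1.

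**Figure D5:**
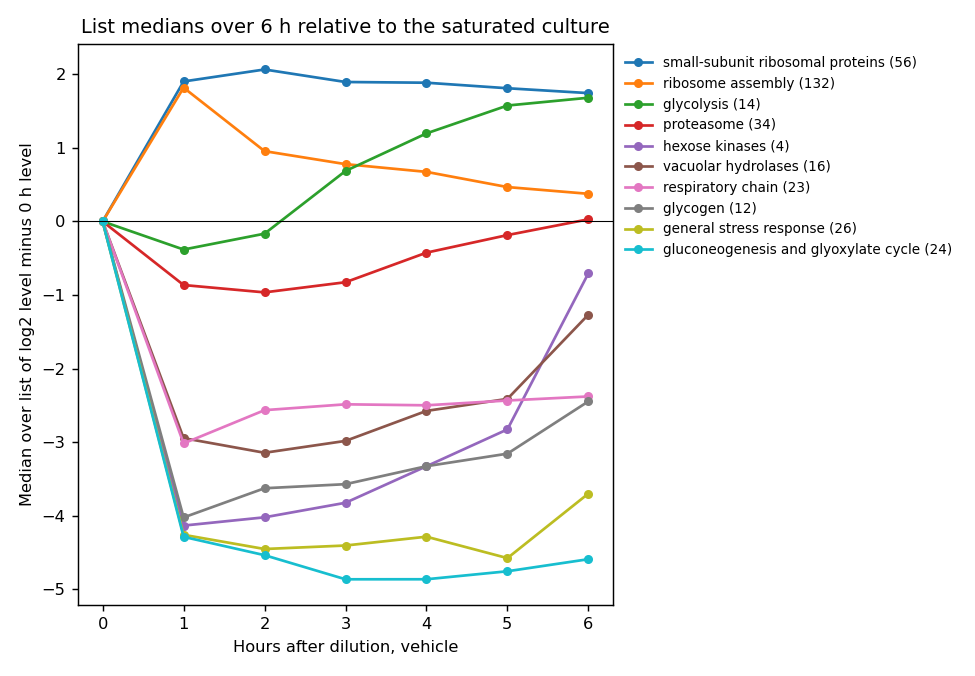
Median over the members of 10 lists of the mean log2(TPM + 1) at each hour minus that at 0 h (vertical), against hours after dilution (horizontal), with 3 vehicle libraries at each hour. Ribosome assembly starts at 1.82 at 1 h and ends at 0.38 at 6 h, hexose kinases stand at -4.13 at 1 h and at -0.70 at 6 h (0.25 after spike-in scaling), and gluconeogenesis stays below -4.2 at every hour from 1 h to 6 h.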

How the data were processed

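The authors extracted RNA, selected poly(A) RNA in stranded libraries trimmed reads with Trimmomatic 0.36 and assigned them with Salmon 0.8.2 to the R64 transcriptome and 92 spike-ins, per the submitters' processing notes (bases called with bcl2fastq 2.17.1.14). One spike-in mix went into the RNA of vehicle samples and another into that of myriocin samples, in amounts not given in the sources used here. The deposited values are TPM that add to 1000000 in each of 42 columns over 6198 features. Read counts, and so depth and counting error, are unknown, and precision was taken from replicates. Column labels carry a letter (A to D) but no replicate number, so columns were taken as unnumbered replicates of their group, and 0 columns were left unused.

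Of 6106 yeast genes, 5997 were tested, and 109 averaged under 1 TPM across the 21 vehicle libraries and were left out. Spike-ins were left out. limma 3.58.1 (R 4.3.3) fitted 7 hourly vehicle means to log2(TPM + 1), with a pseudocount of 1 TPM and a variance trend, and tested 6 h minus 0 h with Benjamini-Hochberg adjustment. The 53 gene lists, 32 pairs and motifs come from general knowledge, and members and lists were chosen with earlier results of these data known. Pairs were tested by exact permutation in Python 3.11.15 with scipy 1.17.1, and coding identity was taken with Biopython 1.88. Promoters are the 300 bases before the start codon in the RefSeq annotation of R64, the build of the files, and 6103 of 6106 genes matched it.

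Genes named are the 12 with the largest changes each way among called genes averaging 10 TPM or more over the 6 libraries with groups that did not overlap, up to 5 called members of each list by size of change, both members of pairs, the 5 most abundant genes that rose, fell or had an interval within 0.5, and fixed markers of mating type, sporulation, plasmid and UBI4. Others, named as exceptions of a list or for their role, were chosen after values were seen, and some items are not reported here. Alternatives were other pseudocounts (0.1 and 10 TPM), filters (none, and a mean of 10 TPM), scalings, removal of a loess trend on coding length (span 0.5), other libraries in the fit, no variance trend, the column letter as a block, and leaving out each of the 6 libraries.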

Additional observations from a re-analysis of the deposited data

How the results depend on the processing

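Read depth is unknown and TPM are shares, so the direction of modest changes rests on the scale. Counts of genes that rose and fell were 3443 and 871 (at least 2-fold, 2291 and 590) with spike-in scaling, and 2676 rose (1081 by at least 2-fold) with the trend on coding length removed, against 1663 and 2540 (711 and 1371). All other alternatives kept these counts within 1.5 times. Leaving out one library gave 1497 to 1760 that rose and 2362 to 2545 that fell, and 684 to 803 and 1322 to 1400 by at least 2-fold. Each omission kept both groups in the fit. With the column letter as a replicate block (estimated correlation 0.2437) 1808 rose and 2633 fell, 717 and 1376 by at least 2-fold, and of the genes covered by the naming rule none changed its call. The sample labels carry replicate numbers, but the columns do not, so no pairing by number was possible. Of 312 called genes covered by the naming rule, 271 kept call and direction in all 18 alternatives. Spike-in scaling reversed EMI2 (0.56), RPN13 (0.42), RPN5 (0.42), PCL1 (0.15), HTA1 (0.20), STE3 (0.38), GPD1 (0.11), GPP2 (0.20), HSP82 (0.41), GRX2 (0.18), TRX2 (0.28), NDT80 (0.16), DIT1 (0.052), RPL15B (0.52) and ZRT1 (0.40), all lower on the TPM scale. The HYP2/ANB1 difference was -0.11 with a pseudocount of 0.1 TPM and, without single libraries, ran between -0.11 and 0.22. The causes were not tested, except that the spike-in scale raised log2 fold changes by a median of 0.93.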

Other observations

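Calls were also counted by features outside the lists. Of 358 tested genes within 30000 bases of a chromosome end, 212 fell and 51 rose (59.2% and 14.2%), against 41.3% and 28.6% of the 5637 genes further in. The medians were -0.67 near the ends and -0.16 further in on the TPM scale, and 0.20 and 0.76 after spike-in scaling. Coding genes under 400 nt that are not ribosomal fell in 301 of 574 cases (52.4%) and rose in 97 (16.9%), against 42.4% and 27.7% of all genes. Their median was -0.58 on the TPM scale, but 0.30 after spike-in scaling. Genes with an intron that encode no ribosomal protein rose in 78 of 220 cases and fell in 88, whereas 88 of the 89 ribosomal protein genes with an intron rose. Read and library length can bear on short genes, and their part in these values was not tested.

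Among RNAs that mostly lack poly(A) tails, 37 of 76 small nucleolar RNAs rose (48.7%) and 13 fell (17.1%), with a median of 0.96. Of all genes 27.7% rose and 42.4% fell. TLC1, the RNA of telomerase, had 109, 90.2 and 89.0 TPM at 6 h, against 14.4, 19.1 and 7.66 TPM at 0 h (2.80 ± 0.20). The spacer of the ribosomal RNA precursor, ITS2-1, was listed at 0 in all 3 libraries of 6 h, against 146, 142 and 163 TPM at 0 h, and its copy ITS2-2 had near-identical values. The external spacer ETS1-1 had 2.74, 0 and 0 TPM at 6 h, against 109, 105 and 73.4 TPM at 0 h. These spacers are cut from the precursor and destroyed in growing cells. How much of such RNA poly(A) selection passed in each group was not tested. Protein-coding genes outside the lists with deep falls, chosen after their values were seen, included ECM13 (-7.14), YNL194C (-6.60), an eisosome-type membrane protein, NQM1 (-6.05), a transaldolase, and GPG1 (-5.96). CHA1, a serine and threonine deaminase induced by those amino acids, rose to 511, 543 and 559.9 TPM at 6 h, against 50.8, 75.7 and 47.6 TPM at 0 h (3.22 ± 0.19). ASC1, a ribosome-bound protein whose intron holds SNR24, rose by 2.90.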
